A study of Homo sapiens with 8 samples.

Results

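NELFE, which encodes the RNA-binding subunit E of the negative elongation factor, lies on human chromosome 6 among the tightly packed genes of the major histocompatibility complex class III region. The neighbours of NELFE described here are 9 genes of that region, named by their position beside it: SKIC2, DXO and STK19 on one side of the NELFE start site and CFB, C2, ZBTB12, EHMT2, SLC44A4 and NEU1 on the other. They are 9 of the 60725 genes in the count table, and 7 of the 9 were among the 16852 genes with enough reads to be tested. CFB and SLC44A4 were not, and C2 passed the filter with only 4 to 11 reads per library.

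All 8 libraries came from SC9, a single clone of the near-haploid human cell line HAP1 that expresses dCas9-KRAB, a Cas9 without nuclease activity joined to a repressor domain. The cells received a lentiviral guide RNA, were selected with puromycin and were harvested for polyadenylated RNA 144 h after transduction. Guide RNAs against NELFE gave 3 libraries and against NELFB gave 2, while the 3 control libraries carried a guide RNA against ADAM22. The study's methods call the knockdown libraries biological replicates made independently, within the 1 clone, and the labels number the control libraries likewise. Control replicate 1 and NELFE knockdown replicate 3 differed most from the other libraries of their groups, with chi-square values per degree of freedom up to 33.5 and 24.4 against 6.42 and 4.70 for the remaining pairs. The reads counted on genes came to 22037423 in the smallest library and 24444185 in the largest.

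In CRISPR interference the KRAB domain recruits the corepressor TRIM28 and, through it, histone H3 lysine 9 methyltransferases, so that a promoter is silenced together with some of the chromatin around it. A promoter that starts genes in both directions offers little distance between the intended target and its partner. NELFE and NELFB encode subunits of the same complex, which holds RNA polymerase II in a paused state shortly after initiation. Loss of the complex is therefore common to both knockdowns, whereas a guide RNA at the NELFE promoter is present in only one of them. The comparison of the knockdowns with each other asks whether genes near NELFE were lower when the repressor was placed there.

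SKIC2 is the neighbour whose promoter faces that of NELFE. Its canonical start, at position 31959175 of chromosome 6 (GRCh38), lies 204 bases from the canonical NELFE start at 31958971, and the genes are transcribed away from each other. The target of the NELFE guide RNA, chr6:31958915-31958936 on the minus strand, is in the first exon of NELFE, 35 bases downstream of the NELFE start and 239 bases from the SKIC2 start. The stretch that belongs to neither gene record, chr6:31959039-31959115, is 77 bases long and contains 8 CpG dinucleotides. In the RefSeq promoter table the SKIC2 window begins at 31958925, within the target. The target is printed as the place to which the repressor was directed and the stretch as the sequence between the gene records, with the PAM of the target and the CpG dinucleotides of the stretch in capitals.
NELFE guide RNA target: gggcgcggccggagaccgtGGG
Between NELFE and SKIC2, plus strand: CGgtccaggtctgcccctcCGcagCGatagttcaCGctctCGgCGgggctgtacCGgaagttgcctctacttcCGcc

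The 203 bases between the canonical starts are 68.5% G or C and hold 24 CpG dinucleotides. In the RefSeq promoter windows of GRCh38.p14, which run from 250 bases before to 50 bases after a start and were found for 8 of the 9 neighbours, SKIC2 has 34 CpG dinucleotides against a median of 14 over 35116 promoters. Searched on both strands, the NELFE and SKIC2 windows each hold the letters CCGGAAG, the core of the ETS motif, at 2 places, and the GC box GGGCGG at 3. The first is found in 10.3% of all promoter windows and the second in 45%. The windows run from 31958922 to 31959221 for NELFE and from 31958925 to 31959224 for SKIC2, nearly the same bases. Their matches are therefore largely the same sites, counted for both genes. The CCAAT box, found in 34.6% of all promoters, does not occur in either window. Neither does the TATAAA motif, which 11.5% of promoters hold.

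NELFE itself was measured first, since it checks the labels. Its normalised read count was 50.5, 49.4 and 48.1 counts per 1000000 reads (CPM) in the control libraries, 2.41, 2.37 and 2.98 CPM in the NELFE knockdown and 61.2 and 56.9 CPM in the NELFB knockdown. The NELFE knockdown libraries stood far below all others, at 5.24% of the control mean. The log2 fold change against control was -4.26 (SE 0.11, adjusted p = 2.15e-08). NELFB, whose gene is on chromosome 9, was at 75.4 ± 3.32 CPM in control cells (SD, n = 3) and at 3.07 and 2.78 CPM in its own knockdown. In the NELFE knockdown it was at 63.8 ± 0.352 CPM, with a log2 fold change of -0.24 (SE 0.0723, adjusted p = 0.0481). That call held in 6 of 16 alternatives and, of the 8 that leave out 1 library, only in the one without control replicate 1, the adjusted p reaching 0.146 without control replicate 3.

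Of the 7 neighbours tested, SKIC2 was the one called lower in the NELFE knockdown against both control cells and the NELFB knockdown. SKIC2 is the RNA helicase of the SKI complex, which feeds messenger RNA to the cytoplasmic exosome. It was at 56.9, 57.4 and 56.5 CPM in control cells, at 42.8, 43.1 and 35.3 CPM in the NELFE knockdown and at 59.8 and 61.4 CPM in the NELFB knockdown. Every NELFE knockdown library lay below every other library, with the third the lowest, and the control and NELFB knockdown libraries together ran from 56.5 to 61.4 CPM. The mean of 40.4 ± 4.4 CPM (SD, n = 3) was 70.9% of control. In raw reads these values rest on 1421, 1296 and 1290 counts in control cells against 1029, 1002 and 759 in the NELFE knockdown. In bulk RNA, fewer cells with the transcript and less of it in every cell cannot be told apart.

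Against control, SKIC2 fell by 0.49 on the log2 scale in the NELFE knockdown (SE 0.0888, approximate 95% interval -0.669 to -0.321, adjusted p = 0.00673). In that comparison 15.0% of all genes tested were called and 7.04% were called lower. Its log2 fold change was 0.09 in the NELFB knockdown (interval -0.103 to 0.282, adjusted p = 0.558), where 19.5% of genes were called. Set directly against the NELFB knockdown, SKIC2 was lower by a log2 difference of -0.58 (SE 0.0979, interval -0.776 to -0.392, adjusted p = 0.0404), a ratio of 0.667. Such a difference was rare: 53 genes or 0.315% were called between the knockdowns. Of all tested genes, 13 or 0.0771% were called lower in the NELFE knockdown, SKIC2 among them. The number lower was 95 of 33854 with no filter on low counts, and 126 of 16852 with the replicate number as a block. The decrease of NELFE in the same comparison, -4.52 on the log2 scale, was far larger than that of SKIC2.

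The decrease of SKIC2 against control was called whichever library was left out, and with control replicate 1 and NELFE knockdown replicate 3, which stood furthest from their groups, both omitted (log2 fold change -0.41, adjusted p = 0.000378). The call against the NELFB knockdown was close to the threshold. It was lost without control replicate 2 (adjusted p = 0.123) or 3 (0.0557) and without NELFE knockdown replicate 1 (0.101) or 2 (0.0917). Without NELFB knockdown replicate 1 or 2, only 1 library was left in that group. The log2 differences of these fits were -0.59 and -0.56, and no call is read from them. With any 1 library left out, the log2 difference stayed between -0.63 and -0.50.

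**Figure D1:**
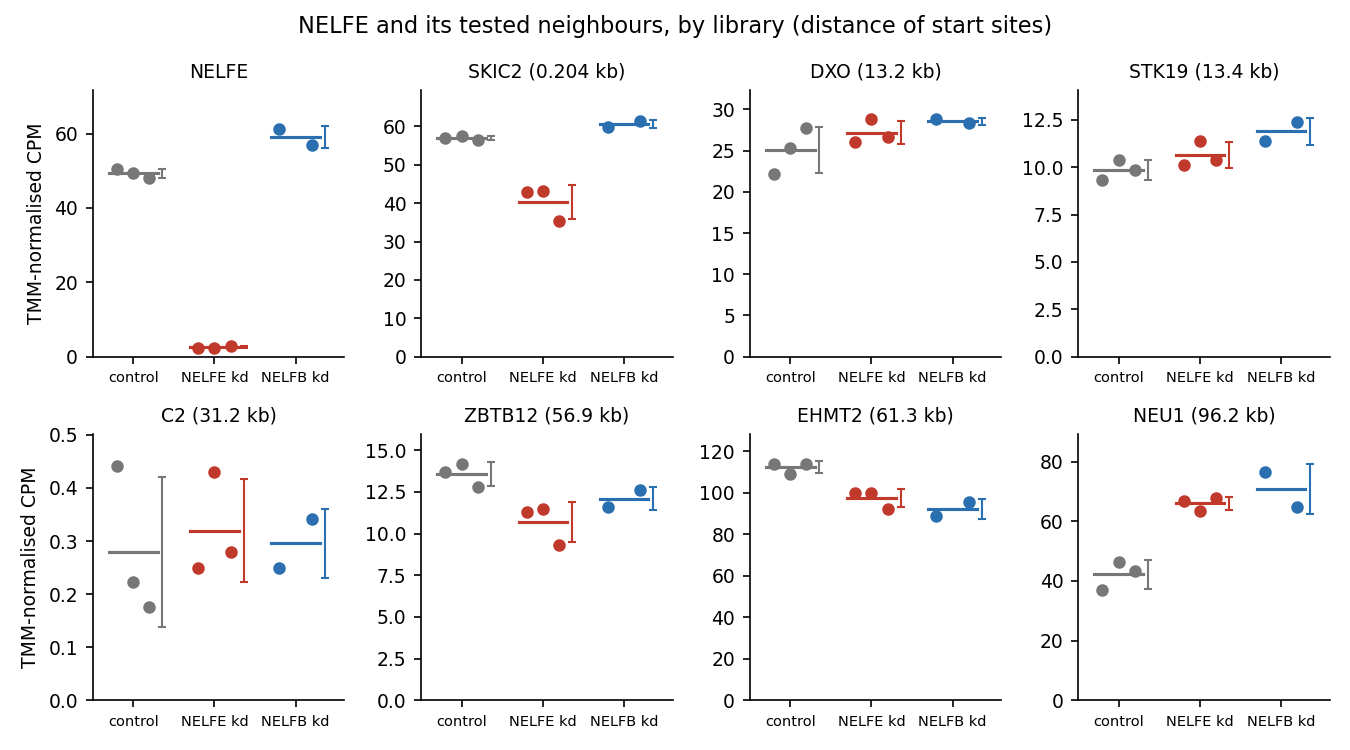
Normalised read counts (CPM, linear axis from 0) of NELFE and its 7 tested neighbours in each library, in order of distance between start sites. Points are libraries, horizontal lines are group means and brackets are SDs. For SKIC2 the 3 NELFE knockdown libraries sit between 35.3 and 43.1 CPM, below all others, while NEU1 is higher in both knockdowns.

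The next genes beyond SKIC2, DXO and STK19, were not called in any of the 3 comparisons. DXO removes incomplete caps from RNA and degrades it from the 5′ end, and its canonical start lies 13.17 kb from that of NELFE. The STK19 start is 225 bases further on, in the opposite orientation, so these genes form a second head-to-head pair. DXO was at 22.2, 25.3 and 27.7 CPM in control cells, at 26.1, 28.8 and 26.7 CPM in the NELFE knockdown and at 28.9 and 28.3 CPM in the NELFB knockdown, and the libraries of the NELFE knockdown overlapped with those of both other groups. Its log2 fold change in the NELFE knockdown was 0.12 against control (interval -0.0743 to 0.312, adjusted p = 0.455) and -0.07 against the NELFB knockdown (interval -0.285 to 0.144, adjusted p = 0.985). STK19, a nuclear protein of transcription-coupled DNA repair, was at 9.87 ± 0.542 CPM in control cells and 10.7 ± 0.701 CPM in the NELFE knockdown (SD, n = 3 each), a log2 fold change of 0.11 (interval -0.118 to 0.34, adjusted p = 0.562). In the NELFB knockdown it was at 11.9 ± 0.723 CPM (SD, n = 2), with a log2 fold change against control of 0.27 (interval 0.02 to 0.526, adjusted p = 0.161). That approximate interval is narrower than the test allows, since the unadjusted p was 0.0594 (edgeR quasi-likelihood test). The difference of the NELFE from the NELFB knockdown was -0.16 for STK19 (interval -0.415 to 0.0912, adjusted p = 0.983), an interval that does not hold the -0.58 of SKIC2 but allows a smaller decrease.

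SKIC2 and DXO lie tail to tail, and their records share 9 exon bases. The number of SKIC2 reads per DXO read in the same library needs no normalisation. Control cells had 2.56, 2.27 and 2.04, the NELFE knockdown 1.64, 1.5 and 1.32 and the NELFB knockdown 2.07 and 2.17. All NELFE knockdown libraries were below the others by this measure as well. DXO shares 26.3% of its exon bases with other genes, and STK19 24%. Reads in shared bases are missing from the counts, since the authors counted without strand and such reads belong to no single gene.

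On the other side of NELFE, its 3′ neighbour is CFB, complement factor B, the protease of the alternative complement pathway. The CFB record ends 1 base from the end of the NELFE record, and its start is 12.88 kb from that of NELFE. CFB was barely detected, with 5, 8 and 4 reads in control cells, 1, 1 and 2 reads in the NELFE knockdown and 3 and 6 reads in the NELFB knockdown. Each NELFE knockdown library had fewer reads than any other library. Summed over libraries, 17 control reads stood against 4, a ratio of 0.246 after correction for library size, with an exact interval for counting error of 0.0602 to 0.754. With no filter on low counts, CFB was not called in the NELFE knockdown (edgeR, adjusted p = 0.0984). As 42.8% of its exon bases are shared with C2 and a read-through gene, and the NELFE knockdown libraries are below the 3 reads that a count of 0 allows, no decrease is stated for CFB.

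C2, complement component 2, and SLC44A4, a choline transporter-like protein, were also near the detection limit. The control libraries held 11, 5 and 4 reads of C2, those of the NELFE knockdown 6, 10 and 6 and those of the NELFB knockdown 6 and 8. Its groups overlapped, and the ratio of NELFE knockdown to control was 1.15 (exact interval 0.599 to 2.22, counting error only). SLC44A4 had 5, 3 and 1 reads in control cells and 4, 7 and 5 in the NELFE knockdown, a ratio of 1.86 (interval 0.773 to 4.77). At this depth a change like that of SKIC2 was not detectable in these 3 genes.

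**Figure D2:**
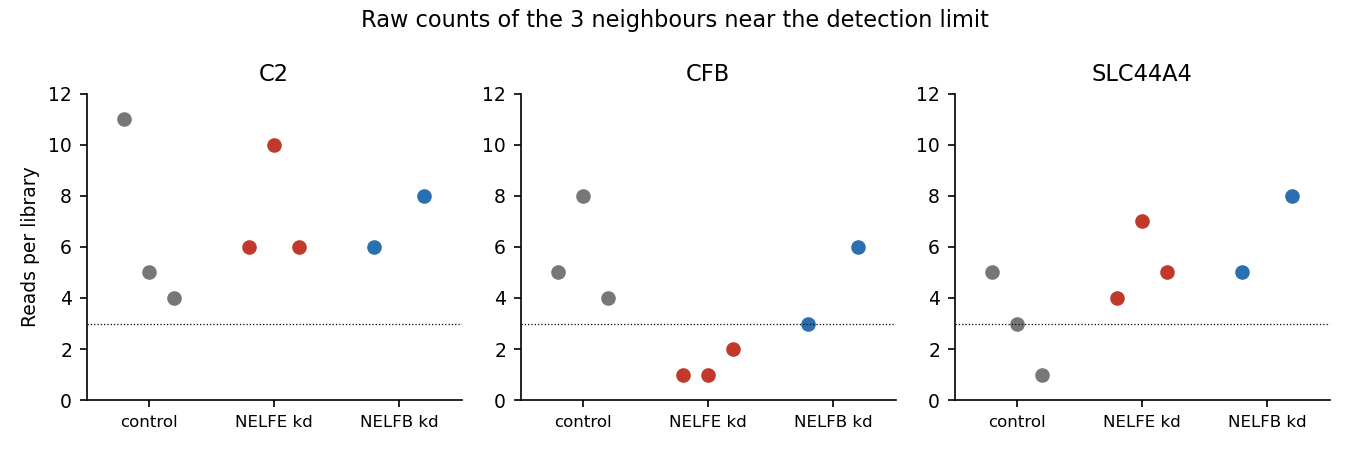
Raw reads per library of C2, CFB and SLC44A4, with the dotted line at 3 reads. CFB has 1 or 2 reads in each NELFE knockdown library and 3 to 8 in the others, while the groups of C2 overlap.

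ZBTB12 and EHMT2 lie 56.88 and 61.27 kb from the NELFE start. Without a replicate block neither was called in the NELFE knockdown, and EHMT2 was called lower in the NELFB knockdown. With the replicate number as a block, both were called lower in the NELFE knockdown (edgeR, adjusted p = 0.0304 for ZBTB12 and 0.0343 for EHMT2). EHMT2 encodes G9a, a histone H3 lysine 9 methyltransferase, and was one of the more abundant neighbours, at 114, 109 and 114 CPM in control cells. It was at 100, 100 and 92.2 CPM in the NELFE knockdown and at 88.6 and 95.4 CPM in the NELFB knockdown. No knockdown library reached the control range, and the knockdowns overlapped with each other. The share of all genes with this separation is not given, and nothing particular to EHMT2 is read from it. EHMT2 fell in the NELFB knockdown by 0.29 on the log2 scale (SE 0.0797, adjusted p = 0.0296). This call was lost without control replicate 2 (0.0627) or 3 (0.0708). Without NELFB knockdown replicate 1 or 2, which leaves 1 library in that group, the log2 fold changes were -0.25 and -0.35. In the NELFE knockdown the log2 fold change was -0.21 (SE 0.0708, adjusted p = 0.0758). The knockdowns differed in EHMT2 by 0.08 (interval -0.072 to 0.239, adjusted p = 0.983).

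ZBTB12, a zinc finger protein with a BTB domain, was at 13.7, 14.2 and 12.8 CPM in control cells, 11.3, 11.5 and 9.31 CPM in the NELFE knockdown and 11.6 and 12.6 CPM in the NELFB knockdown. As for SKIC2, the NELFE knockdown libraries were the lowest 3 of the 8, although the second of them and the lower NELFB library differed by little. This pattern was found for 2 of the 7 tested neighbours and for 1.94% of all tested genes. Without the block, ZBTB12 was not called in the NELFE knockdown against control (log2 fold change -0.34, SE 0.122, adjusted p = 0.0885). Against the NELFB knockdown it was not called either (-0.17, interval -0.442 to 0.094, adjusted p = 0.983). Nor was it called in the NELFB knockdown against control (-0.16, interval -0.431 to 0.103, adjusted p = 0.427).

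NEU1, the lysosomal sialidase, is the most distant of the neighbours at 96.15 kb and moved the opposite way to SKIC2. It was at 36.9, 46.4 and 43.3 CPM in control cells, 66.8, 63.5 and 67.8 CPM in the NELFE knockdown and 76.6 and 64.9 CPM in the NELFB knockdown. All knockdown libraries were above all control libraries, and the knockdowns overlapped. The share of all genes with this separation is not given, and nothing particular to NEU1 is read from it. NEU1 rose by a log2 fold change of 0.65 in the NELFE knockdown (SE 0.101, adjusted p = 0.0037) and of 0.75 in the NELFB knockdown (SE 0.111, adjusted p = 0.00198), which share their control libraries. Its difference between the knockdowns was -0.10 (interval -0.317 to 0.118, adjusted p = 0.983).

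In total, 2 of the 7 tested neighbours were called in the NELFE knockdown, SKIC2 lower and NEU1 higher, and 2 in the NELFB knockdown, EHMT2 lower and NEU1 higher. Over all genes tested the shares called were 15.0% and 19.5%, so that 2 of 7 is not set apart from them. Between the knockdowns 1 of the 7 was called, SKIC2, where the share over all genes was 0.315%. The median log2 fold change of the 7 was 0.11 in the NELFE knockdown and 0.09 in the NELFB knockdown, with medians over all tested genes of -0.00516 and -0.00338.

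**Figure D3:**
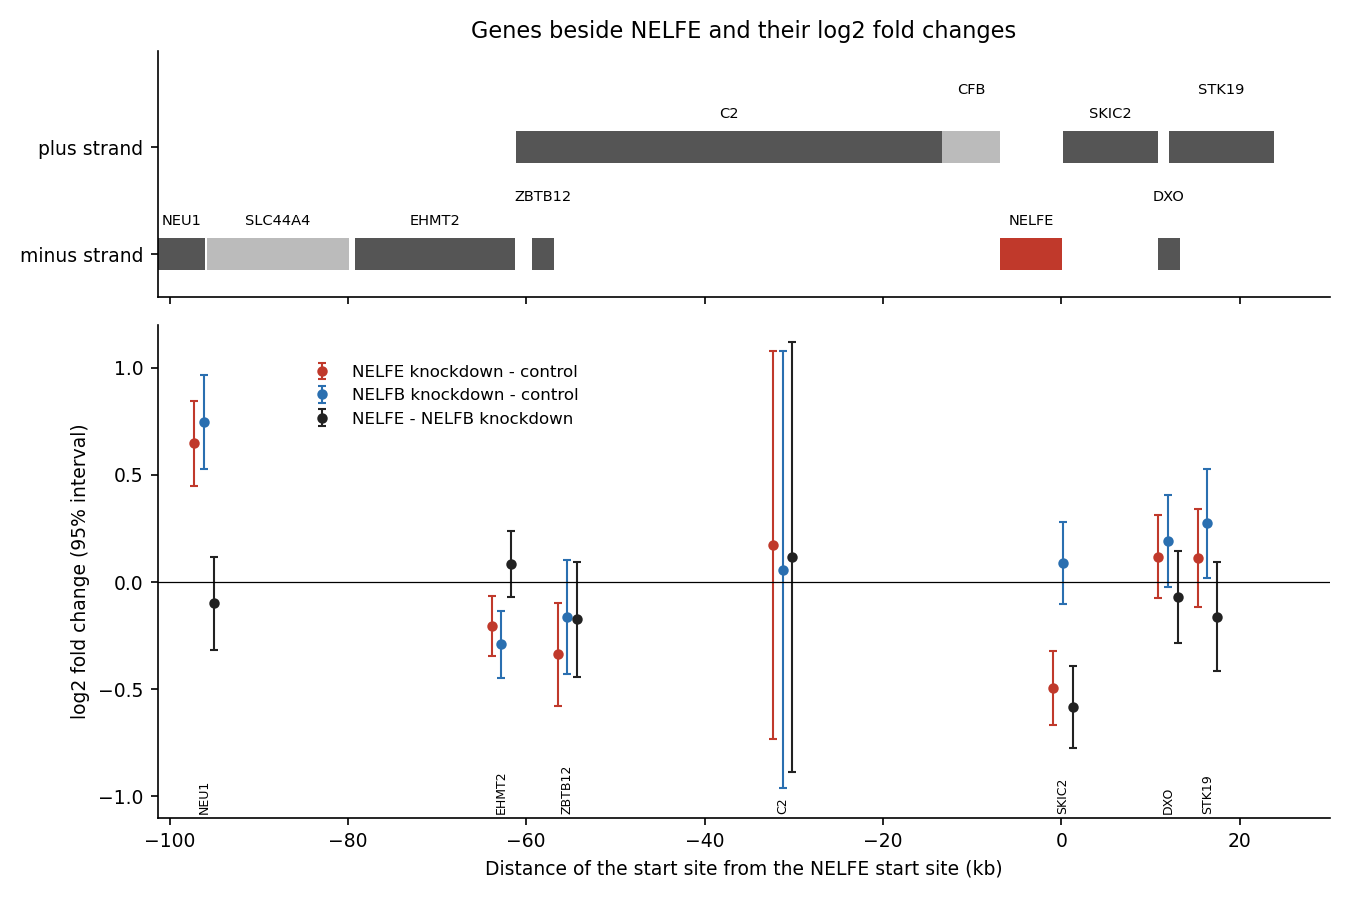
Upper panel, gene records around NELFE to scale, by strand, with untested genes in light grey. Lower panel, log2 fold changes of the 7 tested neighbours with approximate 95% intervals against distance from the NELFE start site (kb), with the points of one gene set side by side and those of neighbouring pairs moved apart for legibility. SKIC2 is below 0 in the NELFE knockdown, at -0.49 against control and -0.58 against the NELFB knockdown, while NEU1 is above 0 in both knockdowns against control.

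Levels of different genes were compared per length, as transcripts per 1000000 (TPM) computed from the counts. The length was the union of all exons annotated for a gene. Levels and their order depend on this choice, which the SDs over libraries do not cover. In control cells NELFE was at 76.3 ± 3.04 TPM and EHMT2 at 63 ± 1.89 TPM (SD, n = 3). SKIC2 at 38.9 ± 0.815 and NEU1 at 35.8 ± 3.88 TPM followed and did not differ beyond their spread. DXO was at 41.3 ± 3.91 TPM, but TPM divide by all exon bases, including the 26.3% in which its reads were not counted, so its level is understated and its place in the order is not given. ZBTB12 was at 28.3 ± 1.82 TPM and STK19, to which the same limit applies, at 10.2 ± 0.534 TPM. The lowest were CFB, C2 and SLC44A4, at 0.188, 0.16 and 0.154 TPM, with 42.8%, 30% and 0% of their exon bases shared, so that no order is given among them. By this measure SKIC2 and NELFE, although they start 204 bases apart, differed in level in control cells.

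Over the 8 libraries, the gene within 1 Mb whose level followed SKIC2 most closely was NELFE, with a Pearson correlation of 0.939 between log2 values among 67 candidates. ZBTB12 (0.821) and LTB (0.801) came next, the latter with only 5 to 11 reads per library. The points share the guide RNA groups, and the values are a description.

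Genes of the whole region were then counted by the distance of their start from that of NELFE. Within 10 kb of the NELFE start, 1 gene was tested and 1 was lower, SKIC2. From 10 to 50 kb, 3 were tested and 0 called, and from 50 to 100 kb 3 were tested, with NEU1 higher. No further gene with a start within 100 kb was tested: 11 others are in the count table, 5 of them with reads, and none exceeded 9 reads in a library. From 100 to 250 kb, 25 genes were tested, of which 6 were lower and 2 higher. From 250 to 500 kb 1 of 16 and from 500 to 1000 kb 1 of 19 was lower. Over the whole 1 Mb on either side, 9 of 67 genes were lower and 3 higher in the NELFE knockdown, and 9 of these 12 were called in the same direction in the NELFB knockdown, with the same control libraries. Over all genes tested, 7.04% were lower and 7.92% higher in the NELFE knockdown, and no excess within 1 Mb is stated. The count of 9 fell to 3 without NELFE knockdown replicate 1 or 2, and to 5 without control replicate 2. It was 17 with the replicate number as a block. The other 3 of the 12 were SKIC2 and 2 genes that overlap each other at about 200 kb, MSH5 and SAPCD1. The log2 fold changes of MSH5 and SAPCD1 in the NELFB knockdown were -0.75 (adjusted p = 0.104) and -1.14 (0.0543).

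The 8 genes called from 100 to 250 kb lie on the side of NEU1, and they are named here after their values were seen. VARS1, the cytoplasmic valyl-tRNA synthetase, had 306 ± 8.44 CPM in control cells and 196 ± 3.77 CPM in the NELFE knockdown, with log2 fold changes of -0.64 in the NELFE and -0.81 in the NELFB knockdown. SNHG32, a small nucleolar RNA host gene, had log2 fold changes of -0.86 and -0.83. LSM2, a subunit of the LSm ring of RNA processing, was also lower. The other lower genes, MSH5, RNU6-850P and SAPCD1, come from 1 place: RNU6-850P lies inside MSH5 and SAPCD1 overlaps its end, and the counts are without strand. The heat shock genes HSPA1A and HSPA1B were higher, at log2 fold changes of 0.71 and 0.79 in the NELFE knockdown and 0.81 and 0.74 in the NELFB knockdown, but they are near-identical copies whose reads could be split between them. None of these 8 was called between the knockdowns. In that comparison SKIC2 was the 1 gene called of the 67 within 1 Mb.

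The same distances were measured around the NELFB start site on chromosome 9 for the NELFB knockdown. Of 64 genes tested within 1 Mb, 13 were lower and 5 higher than in control cells. In the NELFE knockdown 11 of these 18 were called in the same direction. As around NELFE, the comparisons share their control libraries, and no agreement is read from the count. Over all genes tested, 8.88% were lower and 10.6% higher in the NELFB knockdown. Here 1 gene of the 64 was called lower against the other knockdown, as were 40 genes or 0.237% of all tested. It was TOR4A, a torsin family ATPase, named here because of this call. TOR4A starts 22.4 kb from the NELFB start and 4184 bases beyond the end of the NELFB record, on the same strand. Its reads were 14, 11 and 15 in the control libraries, 11, 15 and 15 with NELFE knocked down and 1 and 0 with NELFB knocked down, so the NELFB libraries lay below all others. For this pattern too, the share of all genes is not given. Corrected for library size, the ratio of NELFB knockdown to control reads was 0.0381, with an exact interval for counting error of 0.000941 to 0.225. The genes nearest to the NELFB start, named after their values were seen, STPG3-AS1 at 1.83 kb and STPG3 at 4.04 kb, had few reads. STPG3 had 37, 15 and 7 reads in control cells and 7 and 8 in the NELFB knockdown, with a log2 fold change of -1.38 that was not called (SE 0.657, adjusted p = 0.164).

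**Figure D4:**
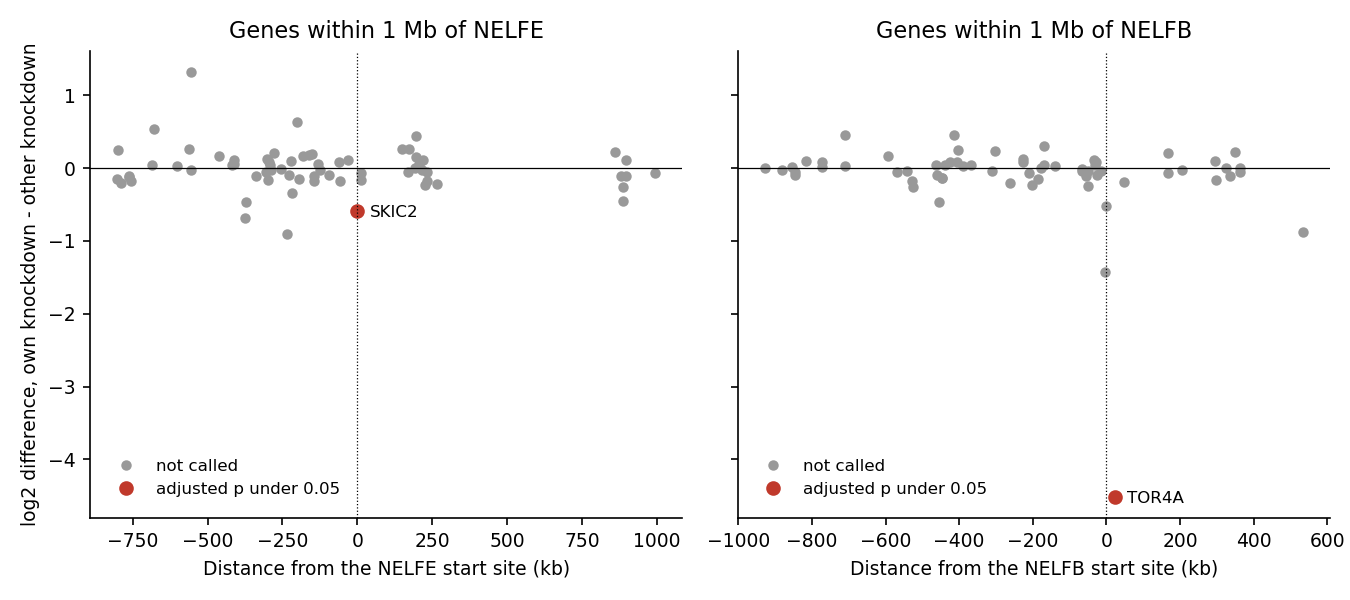
Log2 difference of each knockdown from the other (NELFE minus NELFB on the left, NELFB minus NELFE on the right) for the 67 and 64 genes tested within 1 Mb of the targeted start site, against distance (kb). Red points passed an adjusted p of 0.05: SKIC2 at 0.204 kb on the left, at -0.58, and TOR4A at 22.4 kb on the right, at a fitted -4.51 that rests on 1 read in the NELFB knockdown.

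Genes that work with the neighbours were counted in 7 lists, and none of their tested members was called between the knockdowns. The counts below stand beside 7.92% of all tested genes higher and 7.04% lower in the NELFE knockdown, and 10.6% higher and 8.88% lower in the NELFB knockdown, and nothing particular to a list is read from them. Partners of SKIC2 in the SKI complex and the exosome were mostly not called. Of 15 tested, 0 were higher and 1 lower in the NELFE knockdown, with a median log2 fold change of -0.14. The other SKI subunits, named after their values were seen, were not called (SKIC3 0.04, adjusted p = 0.748, and SKIC8 0.10, adjusted p = 0.414). The lower gene was EXOSC8, a subunit of the exosome ring, at -0.48 (adjusted p = 0.0157) and, in the NELFB knockdown, -0.58 (adjusted p = 0.00944). Of 7 genes for decapping and 5′ decay, in which DXO acts, DCP2, the main decapping enzyme, was lower (-0.31, adjusted p = 0.0167).

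Of 6 lysosomal partners and relatives of NEU1 listed, 4 were tested, and 3 were higher in the NELFE knockdown and the same number in the NELFB knockdown, with a median log2 fold change of 0.50 in the first and 0.63 in the second. CTSA, the protective protein that NEU1 needs for its activity, went from 41.6 ± 2.02 CPM in control cells to 65.6 ± 3.17 CPM in the NELFE knockdown (SD, n = 3 each, log2 fold change 0.66, adjusted p = 0.000927). GLB1, the lysosomal beta-galactosidase of the same complex, changed by 0.43 (adjusted p = 0.0159) and GALNS, a lysosomal sulfatase, by 0.57 (adjusted p = 0.0282). NEU3, the sialidase of the plasma membrane and also named after its value was seen, was not called (-0.06, adjusted p = 0.644).

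Of 7 genes that act with EHMT2 in H3 lysine 9 methylation, 1 was higher and 1 lower in the NELFE knockdown. WIZ, a zinc finger partner of G9a, changed by 0.27 (adjusted p = 0.0419) and the methyltransferase SUV39H1 by -0.36 (adjusted p = 0.0455), while EHMT1, the paralogue that pairs with G9a and likewise named afterwards, was at -0.09 (adjusted p = 0.452). In the list of 10 genes for KRAB repression, the corepressor TRIM28 was lower in both knockdowns (log2 fold change -0.34, adjusted p = 0.0395, and -0.39, adjusted p = 0.029). Of 14 complement genes 10 were tested, and 1 was higher in the NELFE knockdown, C5 (0.77, adjusted p = 0.033). Among 4 choline transporter-like genes SLC44A5 was higher (0.76, adjusted p = 0.0284).

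The libraries had the transcripts of an adherent line, with VIM at 394 CPM and CDH2 at 137 CPM in control cells. In the NELFE and NELFB knockdowns VIM was at 400 and 390 CPM and CDH2 at 192 and 234 CPM. Among 4 blood-cell markers PTPRC, SPN and ITGAM had at most 2 reads in a library, whereas CD34 was at a mean of 0.099 CPM in control cells, 0.742 CPM in the NELFE knockdown and 1.84 CPM in the NELFB knockdown. Summed, these 4 markers ran from 0.131 to 0.177 CPM in control libraries, from 0.387 to 1.3 CPM in the NELFE knockdown and from 0.94 to 2.86 CPM in the NELFB knockdown. Of 4 fibroblast genes DCN had no reads, and COL1A2 and THY1 had at most 4 and 7 reads in a library. Only COL1A1 was well detected, at 22.9, 18.9 and 23.9 CPM in the control, NELFE and NELFB groups. The keratin gene KRT8 went from a mean of 3.49 CPM in control cells to 9.12 and 13.7 CPM in the NELFE and NELFB knockdowns. In the same order, KRT18 went from 28.9 to 38.8 and 48.2 CPM. ABL1 and BCR stood in the marker list as fusion partners, not as genes of a cell type. ABL1 went from 20.6 to 38.6 and 48.3 CPM, and BCR from 21.2 to 24.2 and 28.9 CPM. NEU1 was called higher in both knockdowns and EHMT2 lower in the NELFB knockdown. The part of these shifts in their values was not tested. ADAM22, at which the control guide RNA is aimed, was itself transcribed, at 12.6 CPM in control cells and 39.2 and 38.3 CPM in the NELFE and NELFB knockdowns. Repression by its guide RNA and a change with loss of NELF cannot be told apart here, since every library has one or the other.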

How the data were processed

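Single-end reads of 65 bases were made from polyadenylated RNA. The counts deposited by the authors are raw numbers of reads per gene of Gencode v24 on GRCh38, assigned by STAR 2.5.4a without strand and not normalised. The submitters' processing notes also name FastQC 0.11.6. Symbols, canonical start sites and exon overlaps were taken from GENCODE v44 on the same build, which matched 97.4% of the genes with reads. Boundaries may differ between these releases.

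Genes were filtered with filterByExpr, normalised by TMM and tested in R 4.3.3 with edgeR 4.0.16 (robust quasi-likelihood fit, 1 model of 3 groups over 8 libraries). P-values were adjusted over 16852 genes by the Benjamini-Hochberg method, and genes were called at an adjusted p under 0.05. CPM were taken over the tested genes after TMM scaling. The SE of a log2 fold change is its size divided by the square root of the F statistic of the test. Intervals of log2 fold changes are the estimate ± 1.96 SE. They are approximate and somewhat narrower than the quasi-likelihood test allows. For genes near the detection limit, ratios of summed reads between groups carry exact 95% binomial intervals, scaled by library size. These exact intervals and the floor of 3 reads cover counting error only, since no molecular identifiers are present. The calls were checked on simulated counts drawn from the fitted spread, without outlying libraries. A set recovery was required only for log2 changes far larger than that of SKIC2, so the check does not vouch for calls of that size.

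The neighbours, the lists and the tests were chosen with earlier results of these data known. Genes named were the targets of the guide RNAs, the 9 neighbours, every tested gene within 100 kb, genes within 1 Mb of NELFE called between the knockdowns, the 3 genes within 1 Mb most correlated with SKIC2, the cell type markers, and at most 3 called genes of each list; others are marked as named after their values were seen.

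Results were recomputed with DESeq2 1.42.0, its size factors in edgeR, no filter, the replicate number as a block, at least 10 counts in every library, a prior count of 2, only the libraries of a comparison, each library left out in turn, and windows of 250 and 500 kb. Omission of the libraries that stood apart was added after the data were seen. None of the 28 pairs of libraries agreed within sampling noise (chi-square per degree of freedom at least 4.70). A further blood-cell marker of the list is not reported here.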

Additional observations from a re-analysis of the deposited data

Results flagged for a closer look

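The log2 difference of SKIC2 between the NELFE and NELFB knockdowns, -0.58, was set aside for a closer look because the effects of the knockdowns on this gene differed by a direct test (edgeR, adjusted p = 0.0404). SKIC2 was lower than in all control libraries in 3 of 3 NELFE knockdown libraries.

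TOR4A was set aside for the same reason, with a fitted log2 difference of 4.51 (SE 0.713, adjusted p = 0.0277) between the NELFE and NELFB knockdowns. The fitted value rests on 1 read in total in the NELFB knockdown and depends on the prior count.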

How the results depend on the processing

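Alternatives were run for NELFE, NELFB, the 7 tested neighbours and the counts of calls, not for other named genes, and no called value among these changed sign. SKIC2 against control was called in 16 of 16 alternatives (log2 fold change -0.54 to -0.41, adjusted p 6.33e-05 to 0.0317), as was NEU1 in both knockdowns. SKIC2 between the knockdowns was called in 8 of 16. The adjusted p ran from 0.000212 to 0.123, apart from the fits that leave 1 NELFB knockdown library. It was lost with at least 10 counts in every library (-0.59, adjusted p = 0.0525) and with only the libraries of the comparison (-0.57, adjusted p = 0.103), which leaves 0 neighbours called in each. The cause was not tested.

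Between the knockdowns 53 genes were called, against 90 with DESeq2 and 161 with no filter, where the split changed from 40 higher and 13 lower to 66 and 95. Leaving out 1 library at a time gave 990 to 3123 called genes in the NELFE knockdown, 603 to 4316 in the NELFB knockdown and 27 to 78 between the knockdowns. It gave 1 to 2 neighbours called in the NELFB knockdown and 0 to 1 between the knockdowns, a SKIC2 difference of -0.63 to -0.50 between the knockdowns, and 3 to 9 lower genes within 1 Mb of NELFE. The counts of calls fell lowest without NELFE knockdown replicate 1 (990), NELFE knockdown replicate 2 (1099) or control replicate 2 (1210) for the NELFE knockdown, and without NELFB knockdown replicate 1 (603), NELFB knockdown replicate 2 (1260) or control replicate 2 (1890) for the NELFB knockdown. Without control replicate 1 and NELFE knockdown replicate 3, 5980, 6888 and 296 genes were called in the 3 comparisons, with 15 lower genes within 1 Mb of NELFE in place of 9.

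The labels do not say whether the replicate numbers pair the libraries. Deviations of same-numbered libraries correlated from -0.021 to 0.451, and those of differently numbered libraries from -0.377 to 0.231. These ranges overlap and do not settle it. With the replicate block, 4763 genes were called in the NELFE knockdown and 195 between the knockdowns (69 higher and 126 lower), 4 neighbours were called in the NELFE knockdown, EHMT2 (adjusted p = 0.0343) and ZBTB12 (0.0304) being added, and 17 genes within 1 Mb were lower. Depth limits CFB, C2, SLC44A4 and TOR4A, of which no library held more than 15 reads.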
